A study of Mus musculus with 24 samples.

Results

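The genes described here are 33 named components of the heat shock response and the unfolded protein response, measured by RNA sequencing of the mouse dentate gyrus, the part of the hippocampus where new granule neurons are made in adult life. They form a list of gene names that sets no condition on measured values, though it was drawn up with earlier results of these data known. All 33 were found among the 26667 genes of the count table, and all 33 were among the 18286 genes that passed a filter on low counts. By role they were 14 chaperones and folding enzymes of the endoplasmic reticulum (ER), 6 regulators and stress-induced genes of the unfolded protein response, 11 cytosolic heat shock genes and 2 mitochondrial chaperones.

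The 24 libraries were of 5 groups. The group with both treatments held 5 APP/PS1 mice that received BCI-838 by mouth each day at 5 mg/kg and had free use of a running wheel. A second group of 4 libraries came from APP/PS1 mice that received BCI-838 without a wheel, and another group of 5 libraries from APP/PS1 mice with the wheel and no drug. The APP/PS1 control group had 5 mice with neither drug nor wheel, and the WT control group had 5 C57BL6/J mice with neither. APP/PS1 mice carry transgenes for familial Alzheimer's disease forms of amyloid precursor protein and presenilin and are used as a model of amyloid deposition. Treatment lasted 1 month and the mice without drug received vehicle, and BCI-838 is a prodrug of a group II metabotropic glutamate receptor antagonist. The sources used here do not give age, sex or the promoter of the transgenes. RNA came from frozen dentate gyrus, so the libraries are of mixed cells, and in such samples fewer cells of a type and less RNA per cell cannot be told apart.

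Proteins that enter the ER are folded by chaperones such as BiP, the product of Hspa5, and by protein disulfide isomerases. When unfolded protein builds up there, the sensors IRE1, PERK and ATF6 start the unfolded protein response, in which ATF6, spliced XBP1 and ATF4 raise transcription of chaperones, of degradation factors and, under lasting stress, of genes such as Ddit3 and Trib3. In the cytosol and nucleus a separate system, led by heat shock factor HSF1, induces Hspa1a, Hspa1b, Hsph1 and their partners. Neurons are known for a high resting level of constitutive chaperones such as Hspa8 and Hsp90ab1.

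Library totals ran between 48656360 and 64632882 counts. App was at 2467 to 4054 CPM (counts scaled to library size) in the 19 APP/PS1 libraries, against 1452 to 2073 CPM in the 5 WT libraries, and Prnp, the prion protein gene whose promoter is used in some APP/PS1 lines, was at 1712 to 2388 CPM against 755 to 985.2 CPM. The granule neuron markers Prox1, Dsp and C1ql2 were present in every library, at uneven levels. They ranged over 14.25 to 175.2, 4.321 to 208.1 and 14.27 to 452.9 CPM. The choroid plexus marker Ttr stood apart in 4 libraries, at 1615, 1269 and 425.4 CPM in APP/PS1 control replicates 4, 5 and 2 and 296.6 CPM in BCI-838 + exercise replicate 5, against 0.5726 to 15.56 CPM in the other 20. Because 3 of the 5 APP/PS1 control libraries are among them, values without these 4 libraries are given beside many, but not all, of the differences named below.

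Promoter sequence was examined because Hspa5, Hsp90b1 and Calr varied together across libraries, as described further on. RefSeq (GRCm38.p6) start sites were at hand for 26 of the 33 genes, and Hsp90aa1, Hsf1, Manf, Hspa8, Hyou1, Hsp90ab1 and Atf6 were not among them. The ER stress element, searched on both strands in the 250 bases before each start as CCAAT and CCACG with 9 bases between them, is the sequence at which ATF6 acts together with NF-Y. It was present before 7 of the 26 genes and before 35 of all 27025 genes with starts (0.13%), or 37 of all 32851 starts. The members are known genes of this response, so the 2 shares are a description and not a test. The 4 promoters below belong to Hspa5, Hsp90b1 and Pdia6, the 3 members with the smallest p in the comparison of running mice with controls, and to Calr, printed 5′ to 3′ on the strand of the gene, with the fixed bases of the element in capitals on whichever strand it lies.
Hspa5: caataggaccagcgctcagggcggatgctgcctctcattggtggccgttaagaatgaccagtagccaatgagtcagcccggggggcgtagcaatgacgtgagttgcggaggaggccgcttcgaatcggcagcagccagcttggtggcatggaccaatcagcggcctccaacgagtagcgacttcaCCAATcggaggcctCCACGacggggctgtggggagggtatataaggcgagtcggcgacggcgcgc
Hsp90b1: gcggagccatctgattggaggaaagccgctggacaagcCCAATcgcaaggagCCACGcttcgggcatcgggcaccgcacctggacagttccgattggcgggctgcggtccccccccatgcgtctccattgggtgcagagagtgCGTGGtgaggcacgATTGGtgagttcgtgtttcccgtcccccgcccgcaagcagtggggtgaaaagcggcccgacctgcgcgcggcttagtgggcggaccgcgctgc
Pdia6: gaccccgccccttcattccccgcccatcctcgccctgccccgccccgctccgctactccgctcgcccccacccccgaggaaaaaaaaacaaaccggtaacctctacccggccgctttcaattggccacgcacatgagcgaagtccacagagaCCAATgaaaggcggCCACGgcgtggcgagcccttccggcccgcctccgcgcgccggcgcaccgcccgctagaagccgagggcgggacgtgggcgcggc
Calr: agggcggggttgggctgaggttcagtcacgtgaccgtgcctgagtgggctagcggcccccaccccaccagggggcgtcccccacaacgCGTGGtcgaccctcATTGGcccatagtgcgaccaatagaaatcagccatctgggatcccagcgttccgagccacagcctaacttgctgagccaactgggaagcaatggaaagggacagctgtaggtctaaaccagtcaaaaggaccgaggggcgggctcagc
The window of Hspa5 is chr2:34771840-34772089 (plus strand), with that of Hsp90b1 at chr10:86705445-86705694 (minus strand), Pdia6 at chr12:17266339-17266588 (plus strand) and Calr at chr8:84846932-84847181 (minus strand). The Hspa5, Pdia6 and Calr windows held 1 match each and the Hsp90b1 window held 2, in opposite orientations. The other matches were in Canx, Creld2 and Dnajc3, each shown here as the matched bases alone on the strand of the gene.
Canx (chr11:50325800-50325818, minus strand): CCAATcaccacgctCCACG
Creld2 (chr15:88819520-88819538, plus strand): CGTGGcgagcctcaATTGG
Dnajc3 (chr14:118937827-118937845, plus strand): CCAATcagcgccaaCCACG
The related element ERSE-II was searched on both strands as ATTGG and CCACG with 1 base between them. It was found before Herpud1 alone of the 26 genes and before 10 of all 27025 genes (0.037%), which is again a description.
Herpud1 (chr8:94386377-94386387, plus strand): ATTGGgCCACG
A heat shock element, the alternating unit read by HSF1, was searched on both strands as GAA, TTC and GAA with 2 bases between neighbours. It was found before Hspd1 and Hspe1 and before 139 of all 27025 genes (0.514%). These 2 mitochondrial chaperone genes lie head to head and share the region between them, so the same 2 overlapping matches, capitals below, belong to both.
Hspe1: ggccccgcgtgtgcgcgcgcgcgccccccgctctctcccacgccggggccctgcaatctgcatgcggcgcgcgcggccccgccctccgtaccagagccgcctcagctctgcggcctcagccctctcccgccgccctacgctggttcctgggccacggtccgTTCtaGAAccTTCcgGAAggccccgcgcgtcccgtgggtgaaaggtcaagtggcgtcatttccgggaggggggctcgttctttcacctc
This window lies at chr1:55087898-55088147, on the plus strand of Hspe1. The core of the XBP1 element, TGACGTGG, was found before 185 of the 32851 starts (0.563%) and the amino acid response element, TGATGNAAT, before 268 (0.816%), and neither was found in the windows of the 26 genes. A match in these windows is a run of letters and says nothing of binding in this tissue, and no match says nothing of the factor.

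Levels between genes were compared per length, as CPM per kilobase of annotated exon averaged over the 24 libraries. Constitutive cytosolic chaperones led, with Hsp90ab1 at 524.6, Hspa8 at 231.2 and Hsp90aa1 at 166.5 CPM per kilobase. The membrane-bound ER lectin chaperone Canx at 79.81 and the ER paralogue of the cytosolic Hsp90 genes, Hsp90b1, at 68.64 followed directly, and Hspa5 was at 40.3. The stress-inducible pair Hspa1a and Hspa1b lay near the bottom at 3.674 and 3.807 CPM per kilobase. The pseudokinase gene Trib3, a target of ATF4 and CHOP, was lowest at 0.3817 CPM per kilobase, on 15 to 87 counts in a library.

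**Figure D1:**
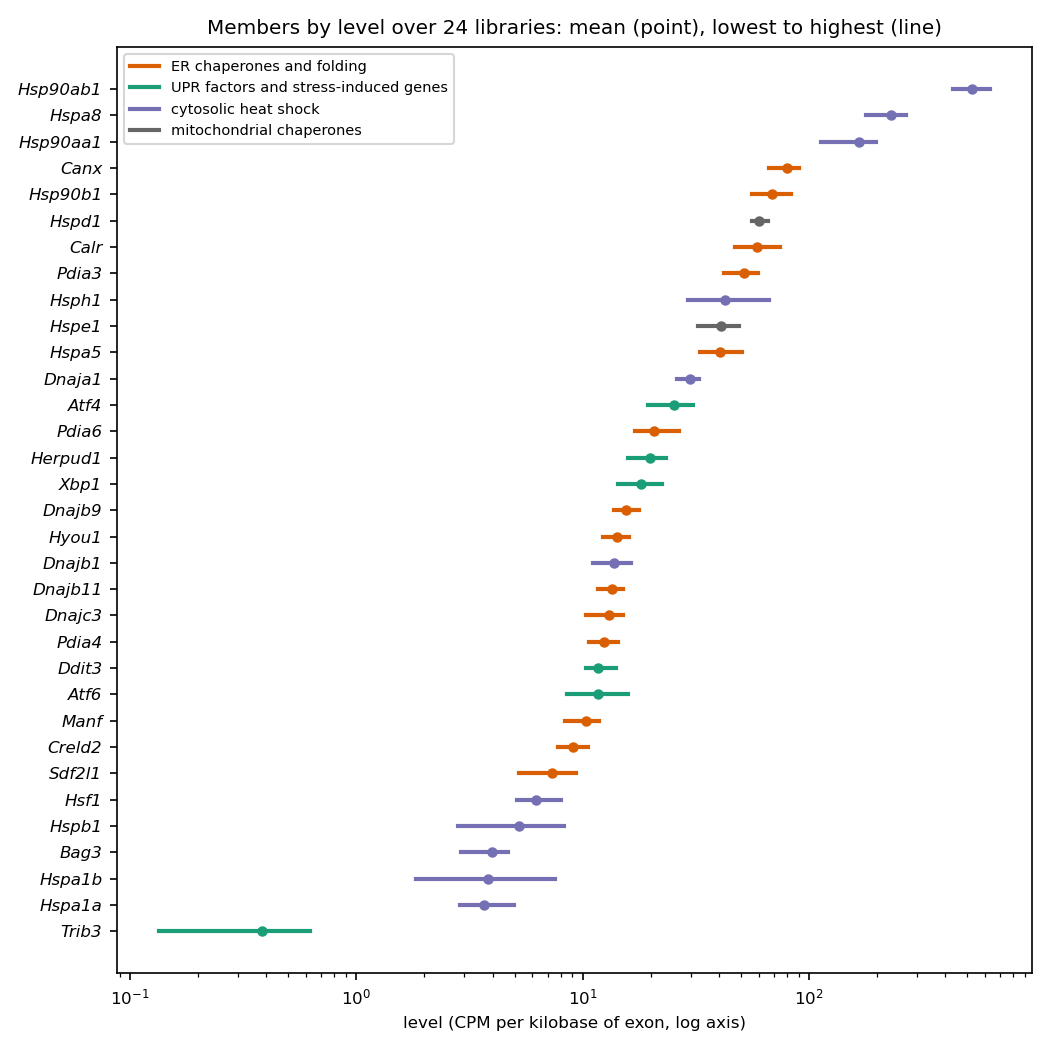
Level per length of the 33 genes, as CPM per kilobase of annotated exon on a log axis, coloured by role, with the mean over 24 libraries and the range over them. Hsp90ab1, Hspa8 and Hsp90aa1 are at the top, the ER chaperones are spread below Canx, and Hspa1a, Hspa1b and Trib3 are at the bottom.

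As a group these genes varied little between libraries. Their median coefficient of variation over the 24 libraries was 10.2%, against 17.2% for all tested genes, which as a median over genes of all levels is a description only. The steadiest was the mitochondrial chaperonin Hspd1 at 4.68%. Trib3 varied most, at 37.1%, followed by the inducible Hspa1b, whose highest library was 4.13-fold above its lowest, while Hsph1, a nucleotide exchange factor for chaperones such as Hspa8, spanned 2.28-fold.

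No comparison called any of the 33 genes by edgeR's quasi-likelihood test at a Benjamini-Hochberg adjusted p under 0.05, computed over all 18286 genes. Differences below are therefore given as values, and a count of genes with an unadjusted p under 0.05 stands beside the same share of all tested genes. Running without drug, set against APP/PS1 controls, had 8 members under that threshold, all lower, where 3.07% of all genes were lower and 2.37% higher (5.44% in all), and 0.00547% of all genes were called. BCI-838 with running, set against running alone, had 10 members, 9 higher and 1 lower, where 8.73% of all genes were higher and 8.83% lower (17.6% in all), and 0% were called. These 2 comparisons share the 5 libraries of the exercise group, so their opposite direction is not independent. Some members also varied together across libraries of a group, as described further on. The members counted here and below are therefore not independent of each other, and the counts are a description. BCI-838 with running against BCI-838 alone had 4 members, all higher, where 7.48% of all genes were higher and 6.84% lower (14.3% in all), and 0% were called. In BCI-838 with running against APP/PS1 controls there were 4, 3 higher and 1 lower, where 4.87% of all genes were higher and 5.73% lower (10.6% in all), and 0% were called. The number for BCI-838 against controls was 3, 2 higher and 1 lower, where 4.23% of all genes were higher and 5.96% lower (10.2% in all), and 0% were called. APP/PS1 controls against WT controls had 1 member, higher, where 2.00% of all genes were higher and 0.755% lower (2.76% in all), and 0.0109% were called. In these last 3 comparisons the share of members was close to that of all genes. The interaction of drug and wheel, which asks whether the difference with the wheel was the same with and without drug, had 9, 8 higher and 1 lower, where 5.37% of all genes were higher and 4.23% lower (9.60% in all), and 0% were called.

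DESeq2 and voom, run as alternatives, each called 1 member in both treatments against running, where they called 2.25% and 5.53% of all genes, and each called 2 in both treatments against BCI-838, where they called 1.49% and 5.12%. Neither called a member in the other 5 comparisons. There the share of all genes called by DESeq2 was 0.930% and by voom 2.64% in BCI-838 against APP/PS1 controls, 0.0766% and 0.0109% in the genotype comparison, 0.334% and 0% in running against APP/PS1 controls, 0.449% and 0% in both treatments against APP/PS1 controls, and 0.421% and 0% in the interaction. All libraries of 1 group lay on 1 side of all libraries of the other for 1 member in both treatments against BCI-838 (Hsp90ab1, higher, where 4.30% of all genes did so higher and 3.94% lower) and for 1 member in both treatments against APP/PS1 controls (Hspb1, lower, where 0.399% did so higher and 0.607% lower). No member did so in both treatments against running (0.536% of all genes higher, 0.864% lower), in running against APP/PS1 controls (0.257% higher, 0.328% lower), in BCI-838 against APP/PS1 controls (2.51% higher, 2.20% lower) or in the genotype comparison (0.186% higher, 0.126% lower).

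**Figure D2:**
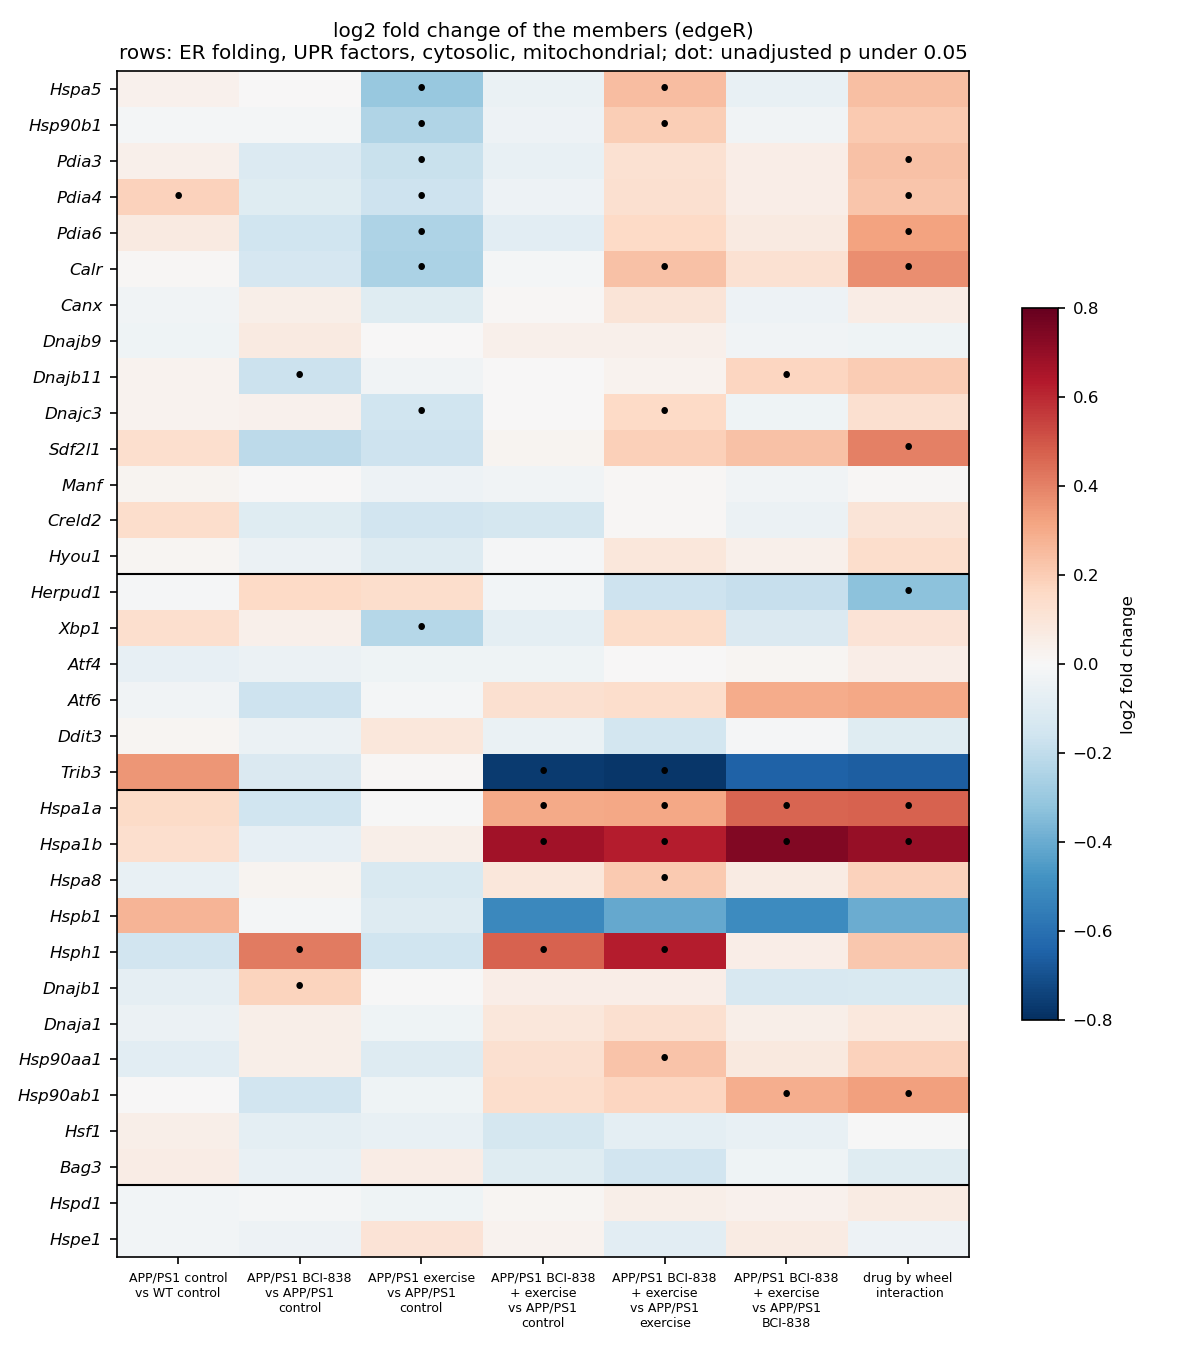
Log2 fold change of each of the 33 genes (rows, grouped by role) in each of the 7 comparisons (columns), with a dot where the unadjusted p was under 0.05. The ER chaperones are lower in 13 of 14 rows for exercise against APP/PS1 control and higher in 14 of 14 for BCI-838 + exercise against exercise, 2 comparisons that share the exercise libraries.

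ER chaperones and folding enzymes were the group that stood lowest in running APP/PS1 mice. Of the 14, 13 were lower and 1 higher in the exercise group than in APP/PS1 controls, and their median difference was -0.16 on the log2 scale, against 0.0088 for all tested genes, of which 52.8% were higher. The 7 with an unadjusted p under 0.05 were Hspa5, Hsp90b1, Pdia6, Pdia3, Pdia4, Dnajc3 and Calr. Hspa5 encodes BiP, the main ATP-driven chaperone of the ER lumen, and lies at chr2:34771970-34777547 on GRCm38, the build of all gene positions given here. Its level was 151, 142, 149, 142 and 143 CPM in the 5 exercise libraries, against 215, 148, 205, 166 and 165 CPM in APP/PS1 controls. The exercise libraries lay close together, control replicate 2 was inside their range and the other 4 controls were above it, with replicates 1 and 3, both of low Ttr, the highest. The difference was a log2 fold change of -0.30 with an SE of 0.096 and an adjusted p of 0.469. Hspa5 averaged 173 ± 22.6 CPM with BCI-838 and running (SD, n = 5), 180.4 ± 13.7 CPM with BCI-838 alone (n = 4), 146 ± 4.05 CPM with running alone, 179.7 ± 28.8 CPM in APP/PS1 controls and 176 ± 12.7 CPM in WT controls (n = 5 each). The WT libraries ranged over 163 to 191 CPM. Exercise against WT was not tested, so no share of all genes stands beside these values.

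Hsp90b1, which encodes the ER chaperone GRP94 and lies at chr10:86690209-86705509, had the same layout. It was at 247, 226, 260.3, 244 and 241 CPM in the exercise group and 337, 248, 329, 261 and 263 CPM in APP/PS1 controls. Control replicate 2 was again inside the exercise range, replicates 4 and 5 were just above it, and replicates 1 and 3 were far above. The result was a log2 fold change of -0.24 with an SE of 0.088 and an adjusted p of 0.657. Pdia6, a protein disulfide isomerase that also restrains the sensor IRE1 (chr12:17266545-17284770), was at 73.2, 67.9, 73.6, 65.7 and 70.9 CPM in the exercise group, against 99.6, 68.2, 93.4, 74.7 and 81.8 CPM in APP/PS1 controls. Its control replicate 2, at the low end, was inside the exercise range. It gave a log2 fold change of -0.25 with an SE of 0.095 and an adjusted p of 0.698. Calr, the soluble lectin chaperone calreticulin, is added here after its values were seen, since its promoter is printed above. Calr averaged 151 ± 13.7 CPM in the exercise group and 179.8 ± 30.2 CPM in APP/PS1 controls (SD, n = 5 each), and 2 of its control libraries were inside the exercise range. For Calr the fit gave a log2 fold change of -0.25 with an SE of 0.11 and an adjusted p of 0.834.

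**Figure D3:**
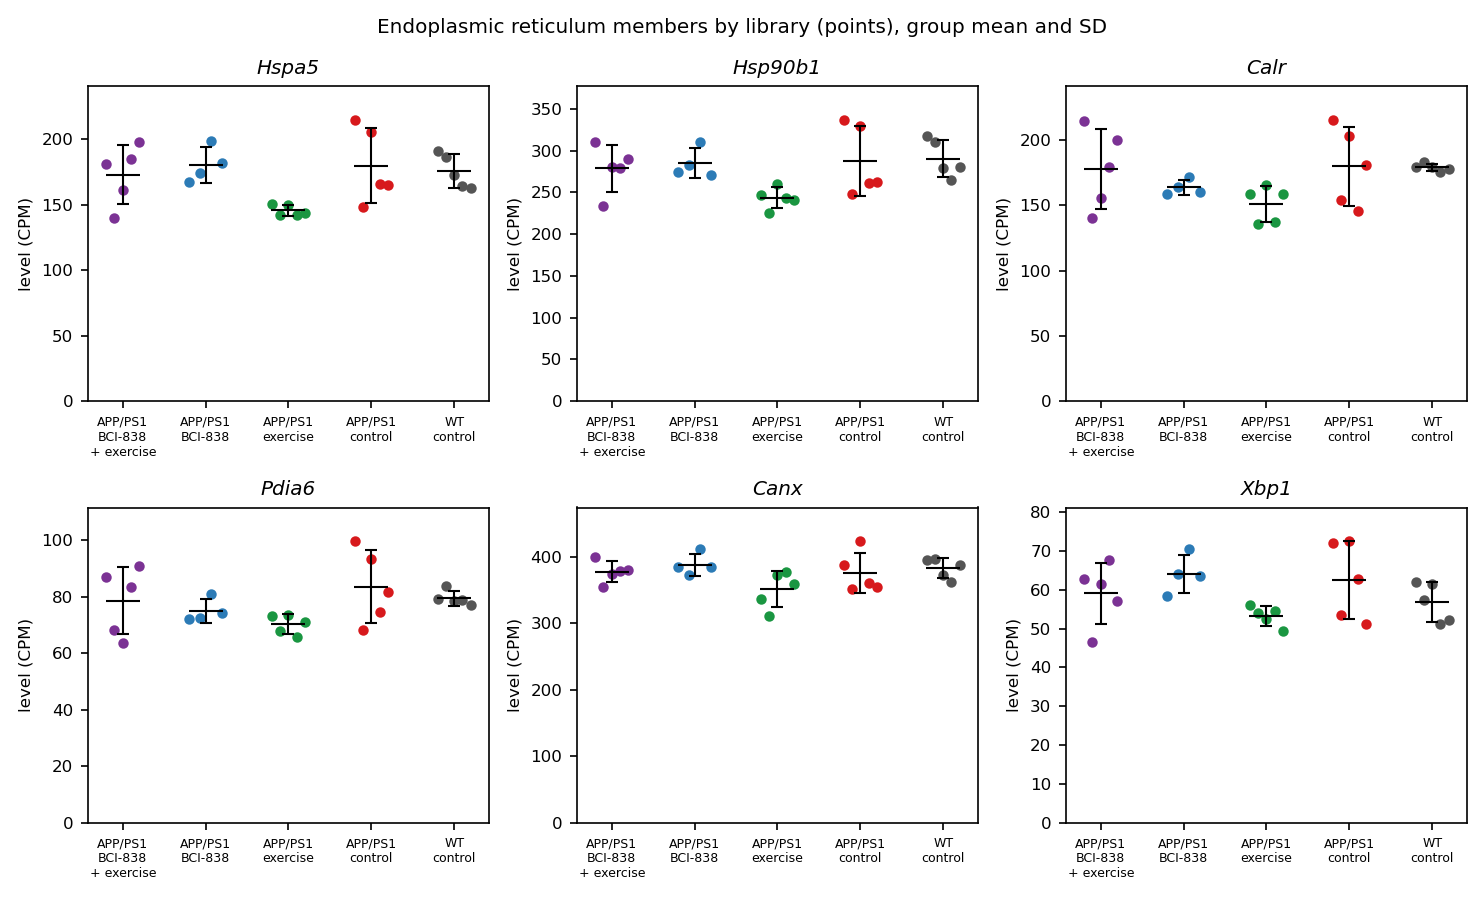
Level in CPM of Hspa5, Hsp90b1, Calr, Pdia6, Canx and Xbp1 in each library (points) with the group mean and SD (bars), in the 5 groups. For Hspa5 the 5 exercise libraries lie between 142 and 151 CPM, and the APP/PS1 control group spreads between 148 and 215 CPM.

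The size of these differences depended on which APP/PS1 control libraries were used. Choroid plexus genes were lower in the exercise group for 12 of 12 listed markers, with a summed level of 187.2 to 269.6 CPM in exercise libraries and 234.3 to 2503 CPM in APP/PS1 controls. No listed choroid marker was at 0 in all libraries, and the part of this tissue in the result was not tested beyond leaving libraries out. Without the 4 libraries of high Ttr, which leaves control replicates 1 and 3 alone on the control side, the log2 fold change was -0.53 for Hspa5, -0.45 for Hsp90b1, -0.46 for Pdia6 and -0.47 for Calr, and the smallest of their adjusted p-values was 0.529 by edgeR's test. All 14 ER genes were then lower. Smaller differences came from voom with quality weights, at -0.20 for Hspa5, -0.16 for Hsp90b1 and -0.14 for Pdia6, with 3 of 14 ER genes higher. Endothelial markers were higher in the exercise group, 8 of 8, at a summed 206.2 to 265.9 CPM against 168 to 220.1 CPM in controls. Granule neuron markers overlapped, at 453.6 to 1033 CPM against 286.4 to 1179 CPM. The lowest control sum, 286.4 CPM, was that of replicate 3, which also had the highest oligodendrocyte sum of the controls, at 9040 CPM. The part of this makeup in the result was not tested.

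When BCI-838 was given with running, the ER chaperones were at higher values than with running alone in 14 of 14, and the median over all 33 genes was 0.12 on the log2 scale, against -0.018 over all tested genes, of which 46.6% were higher. Hspa5 was at 181, 139.9, 161, 185 and 198 CPM in the group with both treatments, against 151, 142, 149, 142 and 143 CPM in the exercise group. Replicate 2 of the group with both treatments was lower than every exercise library and the other 4 were higher than every one. The fit gave a log2 fold change of 0.25 with an SE of 0.096 and an adjusted p of 0.195. This fold change was 0.31 without that replicate, with an adjusted p of 0.0859. Without the 4 libraries of high Ttr, which include replicate 5 of this group, it was 0.20. Its adjusted p by edgeR's test was then 0.305. The ER gene Manf was then lower with both treatments, at -0.028. In the same comparison endothelial markers were lower in 8 of 8, at 158.6 to 201.2 CPM against 206.2 to 265.9 CPM, with no overlap. Dorsal midbrain markers were lower in 7 of 7, at 2.998 to 19.23 CPM against 5.129 to 65.85 CPM, and CA pyramidal neuron markers were higher in 11 of 12. None of these lists had a gene at 0 in all libraries, and their part in the result was not tested.

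In the genotype comparison 11 of the 14 ER genes were higher and 3 lower in APP/PS1 controls than in WT controls, all by small amounts. Pdia4, an ER disulfide isomerase at chr6:47796141-47813430, was at 32.9, 28.7, 34.1, 32.3 and 31.7 CPM in APP/PS1 controls and 25.6, 30, 26.3, 29.2 and 29.5 CPM in WT controls. The groups overlapped through APP/PS1 replicate 2, and Pdia4 had a log2 fold change of 0.18 with an SE of 0.071 and an adjusted p of 0.9998. Creld2, a secreted ER stress-inducible disulfide isomerase, averaged 13.3 ± 0.935 CPM in APP/PS1 controls and 12.1 ± 1.13 CPM in WT controls (SD, n = 5 each). Its libraries were at 14.2, 12.7, 13, 14.4 and 12.3 CPM in APP/PS1 controls. In WT controls they were at 12.9, 12, 13.5, 11.2 and 10.9 CPM, so the groups overlapped. Here the result was a log2 fold change of 0.14 with an SE of 0.086 and an adjusted p of 0.9998. Without the 4 libraries of high Ttr all 14 ER genes were higher, and the 2 APP/PS1 control libraries left were replicates 1 and 3. With BCI-838 alone 5 ER genes were higher and 9 lower than in APP/PS1 controls. Dnajb11, a co-chaperone of BiP, was at 37.6, 39.2, 41.6 and 39.8 CPM in the 4 BCI-838 libraries, against 48.5, 40.3, 48.2, 39 and 47.1 CPM in APP/PS1 controls. Control replicates 2 and 4 were within the BCI-838 range and the other 3 were above it. For Dnajb11 the fit gave a log2 fold change of -0.17 with an SE of 0.075 and an adjusted p of 0.428. Without the 4 libraries of high Ttr this was -0.29, and 1 ER gene was then higher and 13 lower.

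With both treatments against APP/PS1 controls 5 ER genes were higher and 9 lower, and without the 4 libraries of high Ttr 0 were higher and 14 lower. Hspa5 had -0.056 there on the log2 scale, and -0.33 without those libraries, with an adjusted p of 0.408 by edgeR's test. The same pair of values was -0.044 and -0.27 for Hsp90b1 and -0.087 and -0.35 for Pdia6. With both treatments against BCI-838 alone 7 ER genes were higher and 7 lower, also without those libraries. In the interaction 13 of the 14 were higher, with a median of 0.21 on the log2 scale. That contrast is the difference with the wheel in mice on drug minus the difference with the wheel in mice without it, so it contains the low exercise values described above. Canx, which has an ER stress element, stayed within 355 to 399 CPM with both treatments, 372 to 411 CPM with BCI-838, 312 to 378 CPM with running, 351 to 423 CPM in APP/PS1 controls and 362 to 396 CPM in WT controls. All 5 groups of Canx overlapped. In the exercise comparison the 7 genes with an ER stress element had log2 fold changes of -0.304 to -0.0966 with a median of -0.24. The 5 ER genes with a start site in the table and no element had -0.179 to 0.00171 with a median of -0.167. With both treatments against running the medians, with the element first, were 0.162 and 0.122. With BCI-838 against APP/PS1 controls they were -0.0141 and -0.112, and with both treatments against APP/PS1 controls -0.0437 and 0.000562. Both treatments against BCI-838 gave -0.0314 and 0.055. The genotype comparison gave 0.0312 and 0.0387, and the interaction 0.21 and 0.223. This split is over few genes, its ranges overlap, its order differed between comparisons and it was not tested.

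Regulators of the unfolded protein response gave a mixed picture. Of 6, 3 were higher and 3 lower in the exercise group than in APP/PS1 controls, and the same numbers held for the genotype comparison and for both treatments against running. Xbp1 encodes the transcription factor whose mRNA is spliced by IRE1, and the counts are per gene and do not separate its spliced form. It lies at chr11:5520659-5525893 and was at 56.2, 54.1, 52.4, 54.5 and 49.4 CPM in the exercise group, 72.2, 53.5, 72.5, 62.8 and 51.2 CPM in APP/PS1 controls and 62, 57.3, 61.6, 51.1 and 52.1 CPM in WT controls. APP/PS1 control replicates 1 and 3 were again highest, and all 3 groups overlapped. Against APP/PS1 controls, the exercise group had a log2 fold change of -0.23 with an SE of 0.1 and an adjusted p of 0.864, and -0.44 without the 4 libraries of high Ttr. APP/PS1 controls against WT controls had a log2 fold change of 0.14 with an SE of 0.1 and an adjusted p of 0.9998, a value of 0.35 without the 4 libraries of high Ttr and 0.079 without APP/PS1 control replicate 1.

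Herpud1, an ER membrane protein of the degradation machinery and the member of this role with the smallest p, lies at chr8:94386438-94395377. It was at 37.8, 46.7, 43, 49.7 and 42 CPM with both treatments, 46.2, 47.3, 52.7 and 53.2 CPM with BCI-838, 54.6, 49.9, 41.9, 53.7 and 45.8 CPM with running, 51.4, 41.1, 47, 43.2 and 40.3 CPM in APP/PS1 controls and 51.3, 45.3, 47.9, 37.2 and 42.6 CPM in WT controls. Each treatment alone was somewhat higher than the APP/PS1 controls and the group with both was not, with overlap between every pair of groups. Without the 4 libraries of high Ttr the log2 fold change of Herpud1 against APP/PS1 controls was 0.019 with BCI-838 and -0.0016 with running. For the interaction the log2 difference was -0.33 with an SE of 0.14 and an adjusted p of 0.467, and it was -0.17 without the 4 libraries of high Ttr. It was opposite in sign to most of the ER chaperones. Atf4, the effector of PERK, averaged 58.6 ± 9.14 CPM with both treatments, 57.9 ± 2.81 CPM with BCI-838, 58.4 ± 4.18 CPM with running, 59.9 ± 8.23 CPM in APP/PS1 controls and 62.5 ± 7.58 CPM in WT controls (SD, n = 4 for BCI-838 and 5 for the others). Ddit3, which encodes the pro-apoptotic factor CHOP, stayed between 17.6 and 24.1 CPM in all 24 libraries. Atf6, which encodes the ER-anchored sensor, ranged more widely, at 92.6 to 146 CPM with both treatments, 83.5 to 100.5 CPM with BCI-838, 88.2 to 138 CPM with running, 84.5 to 133 CPM in APP/PS1 controls and 78.6 to 133 CPM in WT controls.

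Trib3 is described after its values were seen, as the lowest and most variable gene of the 33. It was at 0.444, 0.959, 0.626, 0.457 and 0.284 CPM with both treatments, against 1.32, 0.796, 1.25, 0.852 and 0.51 CPM in APP/PS1 controls. Replicates 2 and 3 with both treatments were above the lowest control, so the groups overlapped, and the other 3 were below every control. The result was a log2 fold change of -0.77 with an SE of 0.33 and an adjusted p of 0.425. In the exercise group Trib3 was at 0.866, 1.21, 0.66, 1.1 and 0.933 CPM. It was the 1 member with an unadjusted p under 0.05 that was lower with both treatments than with running. Its log2 fold change there was -0.78 with an SE of 0.33 and an adjusted p of 0.234, and -0.61 without the 4 libraries of high Ttr.

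Among cytosolic heat shock genes, the inducible Hspa1a and Hspa1b had their highest group mean with BCI-838 and running together, and Hsph1 was high in both groups on BCI-838. In the group with both treatments, set against running alone, 8 of 11 were higher and 3 lower, their median difference was 0.17 on the log2 scale, and 5 of them, all higher, had an unadjusted p under 0.05, where 8.73% of all genes were higher and 8.83% lower. Hsph1 lies at chr5:149614287-149636376. Its level was 483, 248, 479.8, 344 and 326 CPM with both treatments, 287, 409, 435 and 317 CPM with BCI-838, 212, 221, 271, 230.1 and 283 CPM with running, 284, 258, 286, 237 and 292 CPM in APP/PS1 controls and 274, 375, 291, 280.5 and 289.5 CPM in WT controls. Replicates 1 and 3 with both treatments and replicates 2 and 3 with BCI-838 were the 4 highest libraries of the study, and the next was WT control replicate 2 at 375 CPM. Replicate 2 with both treatments lay within the range of the untreated and running mice. Against running alone, the group with both treatments had a log2 fold change of 0.63 with an SE of 0.15 and an adjusted p of 0.115. This gene was called in that comparison by DESeq2 and voom, with adjusted p-values of 0.0137 and 0.0385. By edgeR it passed the threshold without replicate 2 of the group with both treatments, at 0.74 with an adjusted p of 0.0185. It also passed without exercise replicate 3, at 0.67 with an adjusted p of 0.0439. In 28 of 32 alternatives it did not pass, and the values ranged over 0.52 to 0.74, with adjusted p-values up to 0.369. Without the 4 libraries of high Ttr the value was 0.68 with an adjusted p of 0.26 by edgeR's test.

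Both groups on BCI-838 had higher Hsph1 than APP/PS1 controls, and these comparisons share the 5 control libraries. With both treatments the value was a log2 fold change of 0.47 with an SE of 0.15 and an adjusted p of 0.319. With BCI-838 alone it was a log2 fold change of 0.42 with an SE of 0.16 and an adjusted p of 0.367. Without the 4 libraries of high Ttr these values were 0.45 and 0.35, with adjusted p-values of 0.476 and 0.889 by edgeR's test. Of the 4 BCI-838 libraries, replicate 1 was within the control range and the other 3 were above it. Without BCI-838 replicate 3 the value was 0.30 with an adjusted p of 0.773. Hsph1 averaged 376 ± 103 CPM with both treatments (SD, n = 5) and 362 ± 71.1 CPM with BCI-838 alone (n = 4). The medians were 344 and 363 CPM, and the adjusted p between these groups was 0.919 by edgeR's test.

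**Figure D4:**
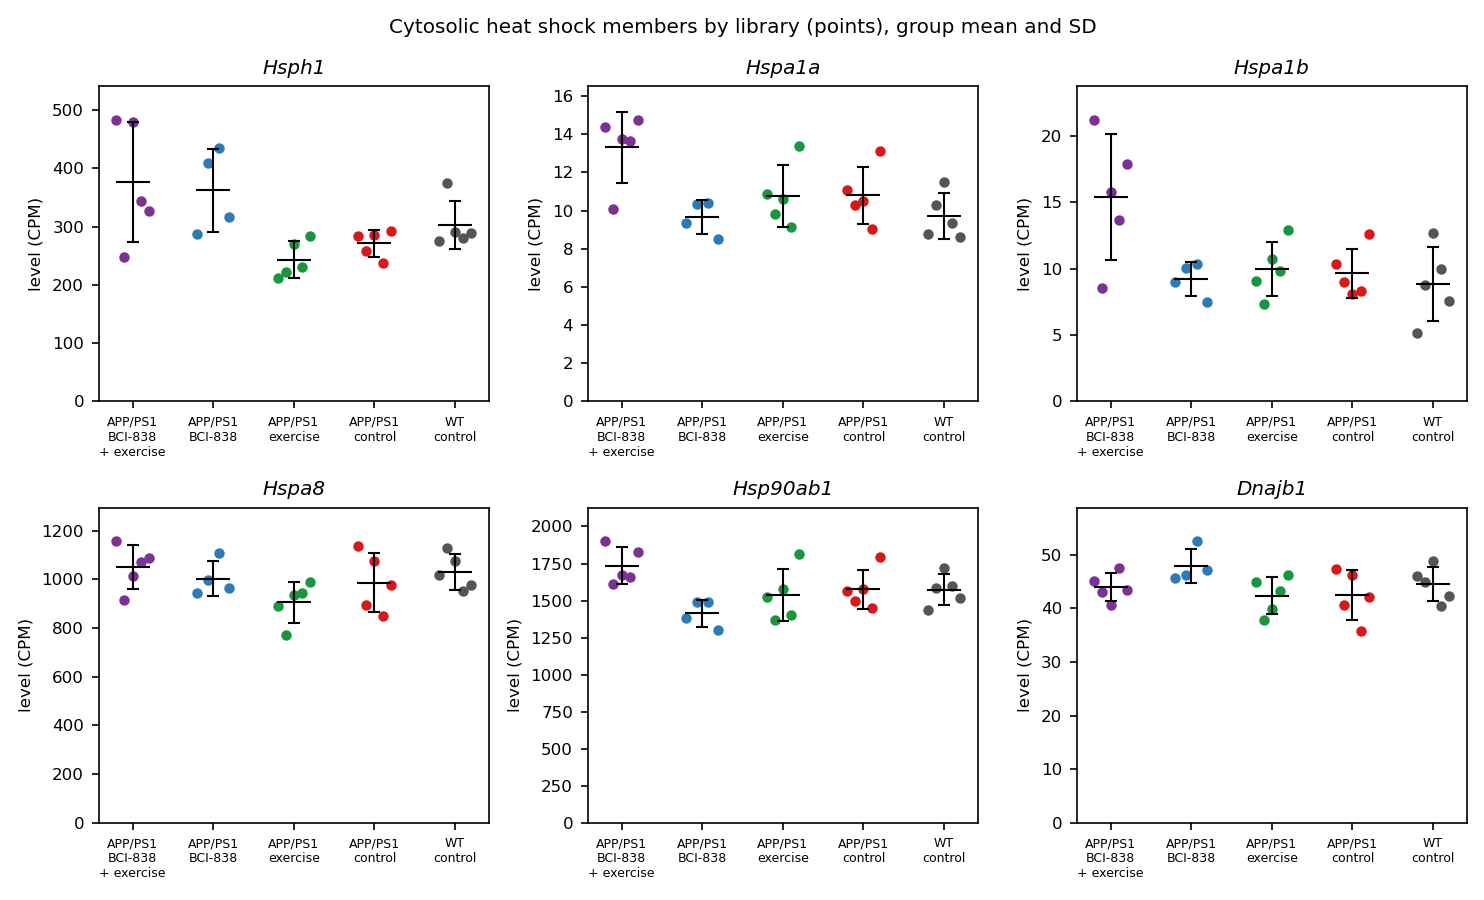
Level in CPM of Hsph1, Hspa1a, Hspa1b, Hspa8, Hsp90ab1 and Dnajb1 in each library (points) with the group mean and SD (bars), in the 5 groups. For Hspa1b 4 of 5 libraries with both treatments lie between 13.7 and 21.2 CPM and replicate 2 lies at 8.51 CPM.

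Hspa1a and Hspa1b are adjacent, nearly identical inducible genes, at chr17:34969190-34972156 and chr17:34956436-34959238. Of their exonic 50-base stretches, 66.3% of Hspa1a and 62.3% of Hspa1b also occur in another gene's transcripts, so reads could be split between them or dropped and their separate values are uncertain. Hspa1a also shares 564 exonic bases, 19.0% of its exons, with Gm20481 on the opposite strand, and the strand setting of the counting is not given in the sources used here. Hspa1a was at 14.4, 10.1, 13.7, 13.7 and 14.8 CPM with both treatments and 9.37, 10.4, 10.4 and 8.5 CPM with BCI-838. Replicate 2 with both treatments was inside the BCI-838 range and the other 4 were above every BCI-838 library. Against BCI-838 alone the group with both treatments had a log2 fold change of 0.46 with an SE of 0.13 and an adjusted p of 0.185. Hspa1a was called here by DESeq2 and voom, with adjusted p-values of 0.0409 and 0.0341. Hspa1b was at 21.2, 8.51, 15.8, 13.7 and 17.9 CPM with both treatments, 8.96, 10.1, 10.3 and 7.51 CPM with BCI-838, 9.09, 7.35, 10.7, 9.84 and 12.9 CPM with running, 10.3, 9.01, 8.06, 8.34 and 12.6 CPM in APP/PS1 controls and 5.14, 8.74, 12.7, 9.97 and 7.52 CPM in WT controls. The same replicate 2 was low, and the other 4 libraries with both treatments were above all other libraries of the study. The fits for this gene gave a log2 fold change of 0.74 with an SE of 0.24 and an adjusted p of 0.198 against BCI-838 alone, and a log2 fold change of 0.63 with an SE of 0.22 and an adjusted p of 0.17 against running alone. Against APP/PS1 controls they gave a log2 fold change of 0.67 with an SE of 0.22 and an adjusted p of 0.321. Without replicate 1 of the group with both treatments, the highest, the values for Hspa1b were 0.60 against BCI-838, 0.48 against running and 0.52 against APP/PS1 controls. For Hspa1a the last of these comparisons gave a log2 fold change of 0.30 with an SE of 0.12 and an adjusted p of 0.389. Its APP/PS1 control libraries were at 11.1, 10.3, 10.5, 9.01 and 13.1 CPM. Replicate 2 with both treatments lay within that range and the other 4 were above it.

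Hsp90ab1, the constitutive cytosolic chaperone with the highest level, lies at chr17:45567775-45573271 and was the gene whose groups did not overlap between both treatments and BCI-838 alone, where 4.30% of all genes did not overlap in that direction. It was at 1900.2, 1611, 1669, 1656 and 1831 CPM with both treatments and 1382, 1489, 1488 and 1302 CPM with BCI-838. The fit gave a log2 fold change of 0.29 with an SE of 0.089 and an adjusted p of 0.191. It was called by DESeq2 and voom, with adjusted p-values of 0.0389 and 0.0319. With running alone it was at 1372 to 1811 CPM, in APP/PS1 controls at 1449.9 to 1792 CPM and in WT controls at 1439 to 1719 CPM, so the BCI-838 libraries were at the low end of the study and those with both treatments at the high end. In the interaction the log2 difference was 0.33 with an SE of 0.12 and an adjusted p of 0.434 for Hsp90ab1 and 0.47 with an SE of 0.18 and an adjusted p of 0.434 for Hspa1a. In the comparison of both treatments with BCI-838 alone the dorsal midbrain markers were lower in 7 of 7, at 2.998 to 19.23 CPM against 35.88 to 60.55 CPM, and the CA pyramidal neuron markers were higher in 11 of 12, at 627.4 to 1696 CPM against 467.9 to 702.9 CPM. The part of these markers in the chaperone values was not tested.

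The other cytosolic genes did not pass the test either. In the exercise group, set against APP/PS1 controls, 9 of the 11 were lower and 2 higher, none with an unadjusted p under 0.05. Hspa8, the constitutive heat shock cognate protein, averaged 1048 ± 90.5 CPM with both treatments, 1003 ± 72.5 CPM with BCI-838, 906 ± 84.1 CPM with running, 986 ± 121 CPM in APP/PS1 controls and 1029.5 ± 73.2 CPM in WT controls (SD, n = 4 for BCI-838 and 5 for the others). The widest gap between these means, both treatments against running, had a log2 fold change of 0.21 with an SE of 0.09 and an adjusted p of 0.232, and 39.4% of the 50-base stretches of Hspa8 occur in other transcripts. Dnajb1, a co-chaperone of the inducible proteins, was at 45.7, 46.2, 52.5 and 47.2 CPM with BCI-838, against 47.3, 40.6, 46.3, 35.7 and 42 CPM in APP/PS1 controls. Control replicates 1 and 3 lay among the BCI-838 libraries. Its value was a log2 fold change of 0.18 with an SE of 0.08 and an adjusted p of 0.452, and without the 4 libraries of high Ttr it was 0.034. Hspb1, a small heat shock protein described after its values were seen, was at 3.98, 3.84, 4.42, 4.53 and 4.47 CPM with both treatments and 5.97, 5.33, 6.39, 8.08 and 4.6 CPM in APP/PS1 controls. It was the member whose groups did not overlap there, where 0.607% of all genes did not overlap with the treated group lower. The edgeR result was a log2 fold change of -0.52 with an SE of 0.26 and an adjusted p of 0.488, and 50.1% of its 50-base stretches occur in other transcripts. Across the 24 libraries the mRNA of HSF1 itself, Hsf1, stayed between 36.5 and 57.2 CPM.

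The mitochondrial chaperonin Hspd1 and its partner Hspe1, whose shared promoter is printed above, had small differences in every comparison. Hspe1 lies at chr1:55088132-55091307 and was at 65.5, 59.7, 54.5, 59.9 and 61 CPM with both treatments, 58.9, 55.5, 57.4 and 57.5 CPM with BCI-838, 67.8, 71.2, 59.4, 47.7 and 72.3 CPM with running, 66.3, 59.6, 56.2, 56.8 and 56.5 CPM in APP/PS1 controls and 60.5, 62.7, 65.8, 53.6 and 57.1 CPM in WT controls. The 5 groups overlapped, and the widest was the exercise group. The smallest unadjusted p of this gene over the 7 comparisons was 0.229. Hspd1 was within 156 to 167 CPM with both treatments, 151 to 163 CPM with BCI-838, 148 to 171 CPM with running, 148 to 169 CPM in APP/PS1 controls and 149.6 to 174 CPM in WT controls.

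Beyond the 33 genes, a wider list of 154 genes of the same pathways was examined, of which 152 were tested. None was called by edgeR's test in any comparison. The number with an unadjusted p under 0.05 was 19 in both treatments against running (17.6% of all genes), 12 in BCI-838 against APP/PS1 controls (10.2%), 11 in both treatments against BCI-838 (14.3%), 7 in both treatments against APP/PS1 controls (10.6%), 6 in the interaction (9.60%), 5 in the genotype comparison (2.76%) and 2 in running against APP/PS1 controls (5.44%). As shares of the 152 genes these counts were below the share of all genes, except in the genotype comparison, where it was slightly above. In running mice 94 of the 152 were higher than in APP/PS1 controls and 58 lower. The 12 other mitochondrial chaperones and proteases were all higher there, led by the protease gene Lonp1 at 97.31 ± 8.577 CPM in the exercise group and 89.11 ± 5.842 CPM in APP/PS1 controls (SD, n = 5 each). For Lonp1 the log2 fold change was 0.13 with an SE of 0.059 and an adjusted p of 0.885. Ssr4, a subunit of the translocon-associated complex, was at 40 ± 5.354 CPM with running and 35.09 ± 3.455 CPM in APP/PS1 controls, with a log2 fold change of 0.19, an SE of 0.084 and an adjusted p of 0.867.

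Other pathway genes with the smallest p-values came from several roles. Sel1l, the partner of the ER ubiquitin ligase HRD1, averaged 239.1 ± 27.75 CPM with both treatments, 183.9 ± 27.72 CPM with running and 194.2 ± 24.21 CPM in APP/PS1 controls (SD, n = 5 each). Its log2 fold change was 0.38 against running, with an SE of 0.10 and an adjusted p of 0.131, and 0.30 against APP/PS1 controls, with an SE of 0.10 and an adjusted p of 0.329. Of the integrated stress response targets, 5 were higher and 20 lower with both treatments than with running, and their median was -0.14 on the log2 scale. Stc2, a stress-induced secreted glycoprotein, averaged 2.861 ± 0.9325 CPM with both treatments, 1.741 ± 0.1725 CPM with BCI-838 and 3.018 ± 0.8637 CPM in APP/PS1 controls (SD, n = 4 for BCI-838 and 5 for the others). BCI-838 differed from APP/PS1 controls in Stc2 by -0.79 on the log2 scale, with an SE of 0.22 and an adjusted p of 0.217. Atf6b, the paralogue of Atf6, averaged 67.79 ± 5.992 CPM with BCI-838 and 87.83 ± 9.037 CPM in APP/PS1 controls, with a log2 fold change of -0.37, an SE of 0.11 and an adjusted p of 0.239. With both treatments it averaged 86.21 ± 8.929 CPM, which was 0.35 above BCI-838 alone on the log2 scale, with an SE of 0.11 and an adjusted p of 0.196. Vldlr, a lipoprotein receptor and target of the PERK branch, averaged 116.5 ± 11.57 CPM with both treatments and 95.99 ± 7.535 CPM in APP/PS1 controls, with a log2 fold change of 0.28, an SE of 0.079 and an adjusted p of 0.272. Pdia2, a disulfide isomerase of low level here, averaged 0.2249 ± 0.1326 CPM with both treatments and 0.6278 ± 0.2674 CPM with running, with a log2 fold change of -1.47, an SE of 0.46 and an adjusted p of 0.148. In the genotype comparison Sec61b, a subunit of the ER translocon, averaged 18.66 ± 2.311 CPM in APP/PS1 controls and 15.68 ± 1.689 CPM in WT controls, with a log2 fold change of 0.25, an SE of 0.084 and an adjusted p of 0.9998. Bag2, a cytosolic co-chaperone, averaged 7.933 ± 0.9996 CPM and 6.542 ± 0.7765 CPM in the same 2 groups, with 0.28, an SE of 0.12 and the same adjusted p. For the interaction the smallest p-values were those of Creb3l1, at 0.82 with an SE of 0.33, and Trap1, at -0.18 with an SE of 0.080.

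Within groups, some chaperone pairs varied together across libraries and others did not pass the test. Each library's log2 level was taken as its distance from its group mean, and 8 relations were tested over 24 libraries by permuting within groups, two-sided. Hspa5 and Hsp90b1 had Pearson's r of 0.90 (permutation p = 2e-05, adjusted p = 8e-05) and Spearman's rho of 0.86 (permutation p = 0.00018). Without the 2 libraries farthest from the median of Hspa5 the r was 0.85. Hspa5 and Calr gave r of 0.80 (p = 0.00032 by permutation, adjusted p = 0.000853), with rho of 0.77 (permutation p = 0.00022), and 0.71 without 2 libraries. With Pdia4 the relation to Hspa5 was weaker, with r of 0.56 (p = 0.0104 by permutation, adjusted p = 0.0208), rho of 0.50 (permutation p = 0.0238) and 0.49 without 2 libraries. Without the 4 libraries of high Ttr the r with Hspa5 was 0.85 for Hsp90b1, 0.71 for Calr and 0.42 for Pdia4, and that of Pdia4 no longer passed its test.

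The constitutive cytosolic pair Hspa8 and Hsp90aa1 was as close, with r of 0.85 (permutation p = 1e-05, the smallest the permutations can give, adjusted p = 8e-05), rho of 0.85 (permutation p = 1e-05) and 0.86 without 2 libraries. The other pairs were looser. For the 1 pair tested between an ER and a cytosolic chaperone, Hspa5 and Hsph1, the values were an r of 0.36 (permutation p = 0.149), rho of 0.26 (permutation p = 0.276) and 0.16 without 2 libraries, with r of 0.54 without the 4 libraries of high Ttr, which did not pass its test. Within the cytosol the HSF1 targets Hsph1 and Dnajb1 had r of 0.23 (permutation p = 0.241) and rho of 0.27 (permutation p = 0.202). Hspa5 and Atf4 gave r of 0.54 (permutation p = 0.0371, adjusted p = 0.055), rho of 0.62 (permutation p = 0.00718, adjusted p = 0.0144) and 0.68 without 2 libraries. Hspd1 and Hspe1, which share a promoter region, gave r of 0.50 (permutation p = 0.0412, adjusted p = 0.055), rho of 0.45 (permutation p = 0.053) and 0.42 without 2 libraries. The points of each relation share their libraries, and with them tissue makeup and RNA quality, whose part was not tested.

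**Figure D5:**
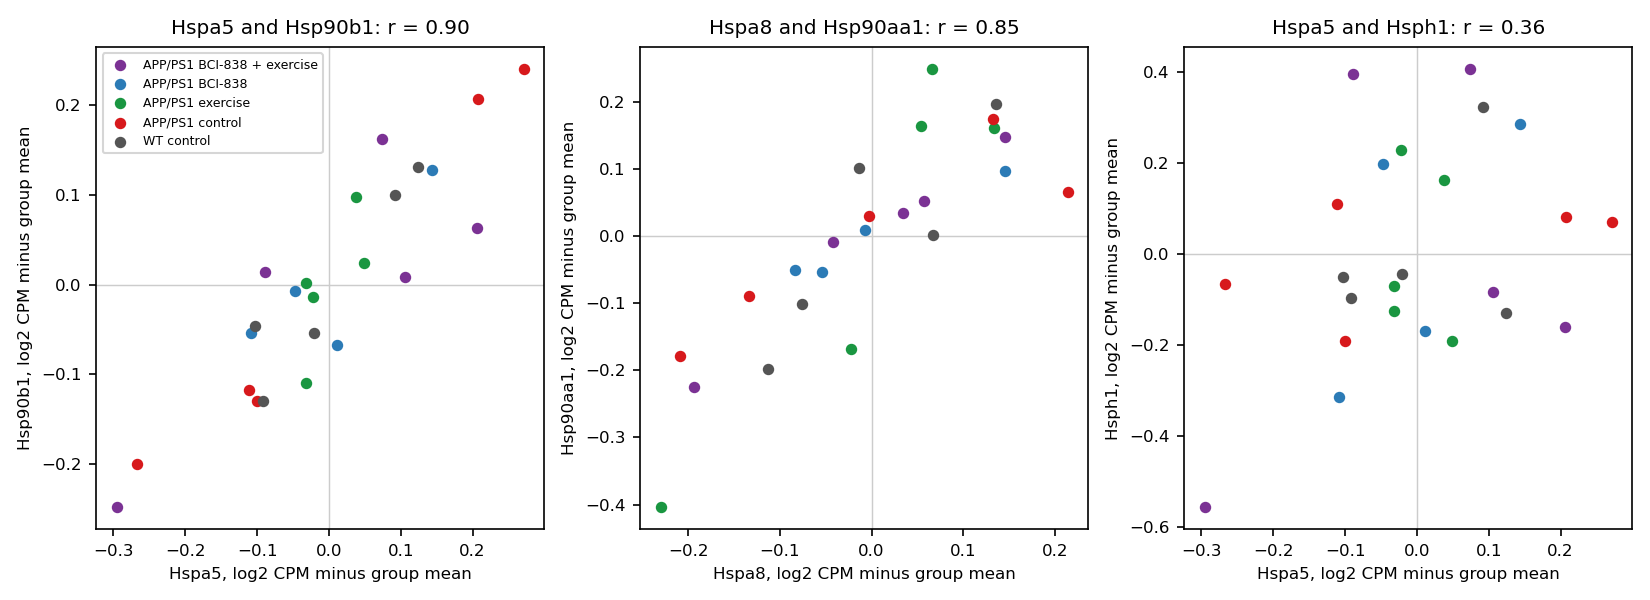
Distance of each library's log2 level from its group mean for Hspa5 against Hsp90b1, Hspa8 against Hsp90aa1 and Hspa5 against Hsph1, over 24 libraries coloured by group. The first 2 pairs lie along a line, with r of 0.90 and 0.85, and the last is a wide cloud, with r of 0.36.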

How the data were processed

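Counts per gene of 24 dentate gyrus libraries were used as deposited. Per the submitters' processing notes the reads were processed with STAR, HTSeq and DESeq on the mm10 build, with no versions given. The sources used here give neither the annotation nor the strand setting of the counting. A normalised table was not used. Low-count genes were removed with edgeR's filterByExpr (minimum count 10, minimum total 15), library sizes were scaled by TMM, and 1 mean per group was fitted over all 24 libraries with edgeR's robust quasi-likelihood test (R 4.3.3, edgeR 4.0.16, limma 3.58.1), adjusting p-values by Benjamini-Hochberg over 18286 genes. CPM values are the counts scaled to the TMM-adjusted library size. No label ties a library to separate extractions or gives a batch, and p-values measure the spread between these mice. Library totals were 48656360 to 64632882, and Trib3 had the fewest counts of the 33 genes, 15 to 87 in a library. Alternatives were DESeq2 1.42.0, voom with quality weights, DESeq2 size factors, no filter, 1 CPM in 5 libraries, a replicate block, the compared libraries alone, each library left out, and, added after the data were seen, the 4 libraries with Ttr above 100 CPM left out.

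In each comparison the members called, or the 3 with the smallest p where fewer than 3 were called, were named. Per library values are given for these and for the member of each role with the smallest p. From the wider list the 2 genes with the smallest p were named. Members and lists were chosen with earlier results of these data known. Correlations used 100000 permutations (Python 3.11.15, numpy 2.4.6). Gene coordinates and exon lengths are from GENCODE on GRCm38, and promoter sequences are from RefSeq on GRCm38.p6. The scripts were tested on simulated data. Any library pair differed by more than sampling noise.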

Additional observations from a re-analysis of the deposited data

Results flagged for a closer look

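In 5 of 165 gene-by-group sets of values 1 library stood apart from the others of its group by more than Dixon's 95% critical value for a group of that size. Chance flags about 1 in 20 such sets, so these 5 are fewer than chance would give. Hspa1a in BCI-838 + exercise replicate 2 was at 10.1 CPM, with the other 4 at 13.7 to 14.8 CPM, and the gap was 0.765 of the range. This library was also lowest of its group for many other members, among them Hspa5, Hspa1b, Hsph1, Hsp90b1, Calr, Hspa8, Hsp90aa1 and Hsp90ab1. It was not lowest for all of them, and it was highest of its group for Trib3 and Hsf1. Hsph1 in WT control replicate 2 was at 375 CPM, with the others at 274 to 291 CPM (0.837). Dnajb11 in WT control replicate 3 was at 48.9 CPM, with the others at 41.7 to 43.7 CPM (0.718). Atf6 in BCI-838 replicate 4 was at 83.5 CPM, with the others at 98.7 to 100.5 CPM (0.899). Bag3, a co-chaperone of selective autophagy, was at 11.1 CPM in APP/PS1 control replicate 4, with the others at 10.2 to 10.3 CPM (0.811).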

How the results depend on the processing

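Each comparison was recomputed under 32 alternatives. Of 672 recomputed fold changes of the named genes, none changed direction, 664 stayed on the same side of the adjusted threshold and 8 passed it. These genes were named for small p-values in the same data, and many alternatives leave out a library of neither compared group. A kept direction was therefore likely beforehand and is a description only. As reported, 0 members were called. DESeq2 called 1 of the 33 genes in BCI-838 + exercise against exercise and 2 in BCI-838 + exercise against BCI-838, and voom with quality weights likewise called 1 and 2. Leaving out 1 library at a time gave 0 to 1 called in BCI-838 + exercise against exercise, with the 1 (Hsph1) without BCI-838 + exercise replicate 2 and without exercise replicate 3. The number of the 14 ER genes that were higher ranged over 0 to 3 in exercise against APP/PS1 control, 11 to 14 in BCI-838 + exercise against exercise, 12 to 14 in the interaction, 7 to 11 in BCI-838 + exercise against BCI-838, 6 to 14 in APP/PS1 control against WT control, 1 to 7 in BCI-838 against APP/PS1 control and 0 to 9 in BCI-838 + exercise against APP/PS1 control. With the replicate number as a block 0 members were called in every comparison. The 28 pairs of same-numbered libraries within comparisons had correlations of -0.257 to 0.395, with 9 over 0.1. Pairs of libraries with different numbers were not set beside them, so these values cannot tell whether the numbers pair the mice. Without the 4 libraries of high Ttr the correlation of Hspa5 with Atf4 was 0.33, and with DESeq2 size factors that of Hspd1 with Hspe1 was 0.46. Neither had an unadjusted permutation p under 0.05. In the main result these r had unadjusted permutation p-values of 0.0371 and 0.0412, and adjusted ones of 0.055 each. Without subtracting group means Hspa5 with Hsph1 reached 0.49 and Hsph1 with Dnajb1 0.41. The causes of these shifts were not tested. Groups of 4 and 5 mice limit every comparison, and counting depth limits Trib3, at 15 to 87 counts.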
